A study of Rattus norvegicus with 6 samples.

Results

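The miR-181 family was examined in the myocardium of rats 4 weeks after myocardial infarction. Its members were taken by name as every rat miRNA of the array called miR-181a, miR-181b, miR-181c or miR-181d, from either arm of the hairpin. This gave 10 of the 758 miRNAs on the array. Each of 6 rats was measured on its own Agilent Rat miRNA array, with 1 dye per array. The 3 rats of the model group had the left anterior descending coronary artery ligated, and their tissue came from the margin of the infarct. The 3 rats of the control group were sham-operated, with the thread passed and not tied, and their tissue is given only as myocardium. All 6 were male Sprague–Dawley rats, with no genotype beyond the strain and no age given. Infarction and the place from which the tissue was taken cannot be told apart in this design.

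A miRNA is cut from a hairpin as a short strand from its 5′ arm (5p) or its 3′ arm (3p) and is loaded onto an Argonaute protein, where its seed, bases 2 to 8, pairs with messenger RNAs and lowers their output. The miR-181 hairpins lie in pairs, each pair made as a common transcript. MiR-181a is known for setting the sensitivity of the T cell receptor, miR-181b for damping NF-κB signalling in the endothelium, and miR-181c for entering the mitochondria of heart muscle cells, where it acts on a subunit of cytochrome c oxidase.

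Mature sequences for 9 of the 10 members were found in RefSeq (GRCr8). The 5p arms of the 4 members are shown first because the results turn on them, with the seed in capitals, written 5′ to 3′.
rno-miR-181a-5p: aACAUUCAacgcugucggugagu
rno-miR-181b-5p: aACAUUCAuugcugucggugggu
rno-miR-181c-5p: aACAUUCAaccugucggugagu
rno-miR-181d-5p: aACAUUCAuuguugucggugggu
All 4 hold the seed ACAUUCA, and they are the only 4 of the 693 rat mature miRNA names in RefSeq with it, so that they differ only downstream of the seed. Counted from the 5′ end, miR-181a-5p and miR-181b-5p differ by the substitutions A9U, C10U and A21G. MiR-181b-5p and miR-181d-5p differ by 1 substitution, C12U. MiR-181c-5p is miR-181a-5p without its G11. The array files give no probe sequences, and how far a probe for 1 of these strands also binds another was not tested.

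The hairpins lie at 3 places in the rat genome. The sequence of miR-181a-5p is held at 2 of them, at chr13:52037081-52037103 (Mir181a-1) and chr3:43025601-43025623 (Mir181a2), both on the plus strand of GRCr8. MiR-181b-5p is also held at 2 places, at chr13:52037263-52037285 in Mir181b1 beside Mir181a-1, and in Mir181b2 beside Mir181a2. The pair on chromosome 13 lies in the non-coding gene LOC108352541. The pair on chromosome 3 lies within both Nr6a1, a nuclear receptor gene, and LOC120101539, with 986 bases between the hairpins. MiR-181c-5p at chr19:40888314-40888335 and miR-181d-5p at chr19:40888484-40888506 each come from 1 hairpin, and 77 bases lie between those hairpins. The 3p arms have other seeds. The 3p arm of Mir181a-1, the only 3p arm of the family detected on any array, is shown beside that of Mir181c, which shares its seed.
rno-miR-181a-1-3p: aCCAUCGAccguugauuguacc
rno-miR-181c-3p: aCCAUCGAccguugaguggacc
The seed of both is CCAUCGA, and they differ by the substitutions U16G and U19G.

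The array had 2 probes for each member, 20 in all, with 8 spots per probe. A probe was counted as detected when its signal was over 3 times its error, and the signal of a miRNA was the sum of its detected probes. Between 206 and 222 of the 758 miRNAs (27.2% to 29.3%) were detected per array, no spot was saturated, and the lowest detected signals were 1.16 to 1.60. The 6 arrays were on 1 slide and scanned in 1 run. Row 1 of the slide held the 3 control arrays and model array 1, and row 2 held model arrays 2 and 3.

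The 5p arms of all 4 members were detected on all 6 arrays. Over the arrays, the better probe of miR-181a-5p had a signal 9.97 to 9.99 times its error, and those of miR-181b-5p, miR-181c-5p and miR-181d-5p had signals 8.50 to 9.33 times theirs. The 3p arms were near or below the limit of detection. MiR-181a-2-3p, miR-181b-1-3p, miR-181b-2-3p, miR-181c-3p and miR-181d-3p were detected on no array, and none of their probes had a signal over 0.648 times its error. MiR-181a-1-3p was detected on 1 of 3 control arrays and on 3 of 3 model arrays. Its better probe had a signal of 2.99, 3.04 and 2.85 times its error on control arrays 1, 2 and 3, and of 3.03, 3.31 and 3.00 times its error on model arrays 1, 2 and 3. All 6 values lay close to the limit of 3, and those of the groups overlapped.

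**Figure D1:**
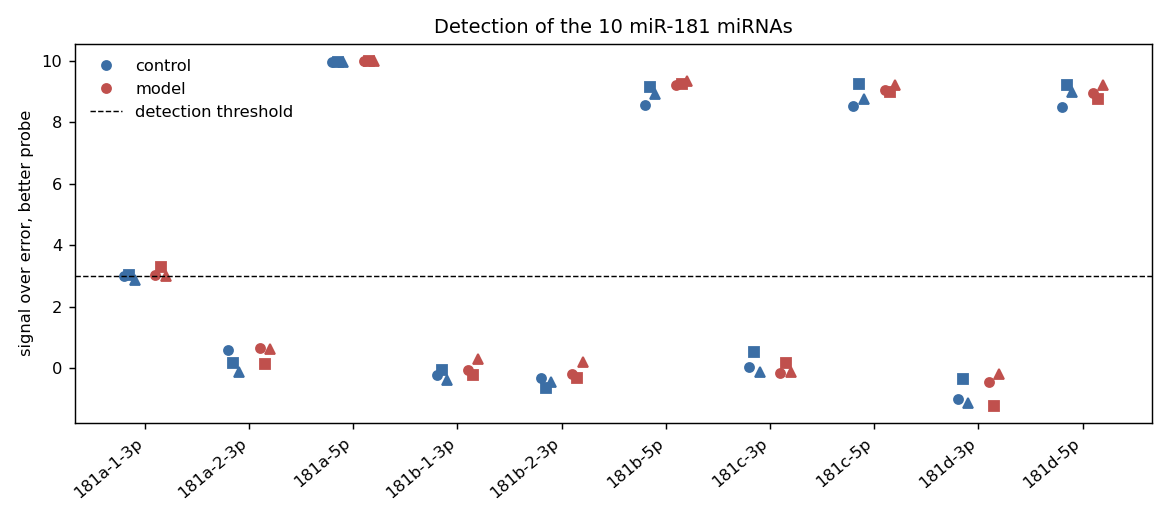
Signal of the better probe of each of the 10 miR-181 miRNAs divided by that probe's error (vertical axis, no unit) on the 3 control (blue) and 3 model (red) arrays; circles, squares and triangles are arrays 1, 2 and 3. The 4 miRNAs of the 5p arm sit at 8.50 or above, miR-181a-1-3p sits at the detection threshold of 3 (dashed line), and the other 3p arms sit at 0.648 or below.

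The comparison of model with control asks how the scaled signal of each miRNA at the infarct margin stood relative to that in myocardium of sham-operated rats. None of the 4 miRNAs of the 5p arm passed the test. On the scaled log2 scale the estimates for miR-181a-5p and miR-181b-5p were close to 0, and those for miR-181c-5p and miR-181d-5p were below 0, with that of miR-181d-5p the farthest from 0. For this comparison signals were divided by the array's own 75th percentile, taken over the 198 miRNAs that all 6 arrays detected, and log2 was taken. The 214 miRNAs that were detected in all 3 arrays of either group were tested with limma. In whole tissue, fewer cells of a type and less of a miRNA per cell cannot be told apart.

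MiR-181a-5p, the member with a role in T cell signalling, had scanner signals of 164, 208 and 165 on control arrays 1, 2 and 3 and of 207, 212 and 192 on model arrays 1, 2 and 3. After scaling these were 0.18, 0.14 and 0.18 against 0.02, 0.14 and 0.19 on the log2 scale. Model array 1 was the lowest of the 6 and model array 3 the highest, so the groups overlapped. The log2 fold change was -0.05 (SE 0.0757, 95% CI -0.24 to 0.14, limma adjusted p = 0.648).

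MiR-181b-5p, made from the same hairpin pairs and known from the endothelium, had scanner signals of 25.0, 33.6 and 27.4 on the control arrays and of 34.9, 35.0 and 29.5 on the model arrays. Its scaled log2 signals were -2.54, -2.49 and -2.41 against -2.54, -2.46 and -2.51, and the groups overlapped. Its log2 fold change was -0.02 (SE 0.0727, 95% CI -0.20 to 0.16, limma adjusted p = 0.852). As ratios of model to control, the intervals ran from 0.849 to 1.099 for miR-181a-5p and from 0.869 to 1.114 for miR-181b-5p. They hold for these scaled values only, since both signs turned under other scalings.

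MiR-181c-5p, the member found in heart muscle mitochondria, had scanner signals of 24.5, 36.1 and 24.1 on the control arrays and of 29.2, 28.0 and 27.9 on the model arrays. Its scaled log2 signals were -2.57, -2.39 and -2.59 in control rats, against -2.80, -2.78 and -2.59 in model rats. All model arrays were below all control arrays, but model array 3 (-2.594) and control array 3 (-2.593) almost touched. Its log2 fold change was -0.21 (SE 0.0987, 95% CI -0.45 to 0.03, limma adjusted p = 0.172).

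MiR-181d-5p, the neighbour of miR-181c, had scanner signals of 21.4, 33.1 and 25.1 on the control arrays and of 25.3, 22.4 and 24.3 on the model arrays. Its scaled log2 signals were -2.76, -2.51 and -2.53 in control rats, against -3.01, -3.11 and -2.79 in model rats. The mean was -2.60 ± 0.137 (SD, n = 3) for control rats, against -2.97 ± 0.160 (SD, n = 3) for model rats, with all 3 model arrays below all 3 control arrays. The log2 fold change was -0.37 (SE 0.119, 95% CI -0.66 to -0.07), a ratio of model to control of 0.776 (95% CI 0.633 to 0.950). Its unadjusted limma p was 0.0225 and its adjusted p was 0.0802, which missed the threshold of 0.05.

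**Figure D2:**
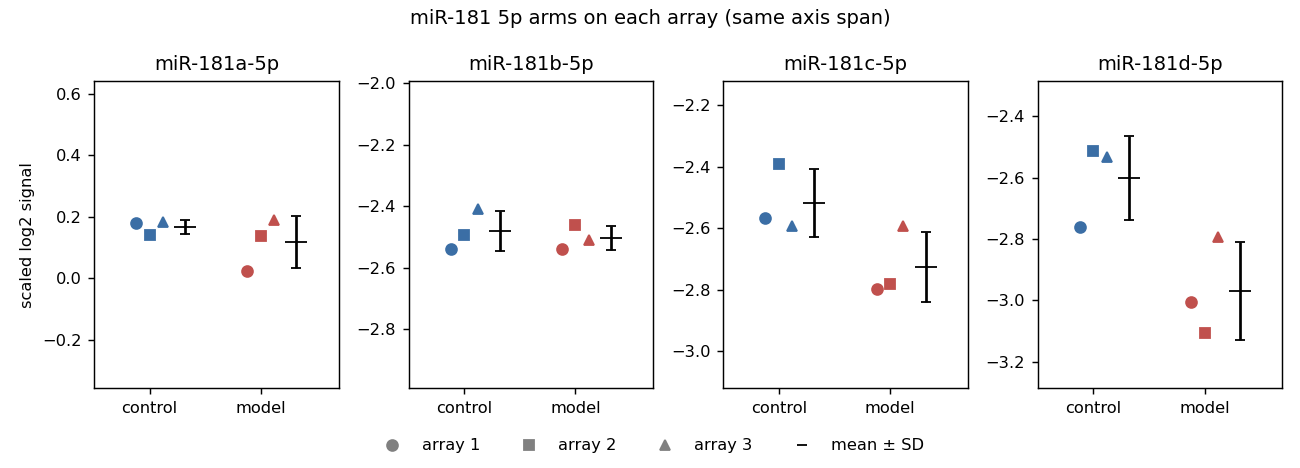
Scaled log2 signal (vertical axes, the same span in each panel) of the 4 miR-181 5p arms on each array, with control arrays in blue, model arrays in red, and the mean ± SD of each group as a black bar (n = 3). The groups overlap for miR-181a-5p and miR-181b-5p, almost touch for miR-181c-5p, and are apart for miR-181d-5p, with a control mean of -2.60 and a model mean of -2.97.

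MiR-181a-1-3p, which passed the filter only through the model group, had scanner signals of 3.06 on control array 2 and of 2.84, 3.10 and 2.29 on model arrays 1, 2 and 3, and it was not detected on control arrays 1 and 3. Those 2 arrays stood at the floor of -6.50 on the log2 scale, beside -5.95 on control array 2 and -6.16, -5.96 and -6.20 on the model arrays. Its log2 fold change of 0.21 (SE 0.177, 95% CI -0.22 to 0.65, limma adjusted p = 0.377) was set in part by that floor, and it was -0.27 when all probes were summed, whether detected or not.

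Thus 0 of the 5 members tested, of 10 in the family, had an adjusted p under 0.05 in limma, beside 22.9% of all miRNAs tested (49 of 214). In the model group, 22 of these miRNAs (10.3% of those tested) were higher and 27 (12.6%) were lower. That background was smaller when single arrays were left out, which also leaves fewer arrays to test. It was then 14 to 39 miRNAs, the lowest being 14 of 216 without control array 1. At an unadjusted limma p under 0.05 there was 1 member, miR-181d-5p, beside 37.9% of all miRNAs tested. The methods' t-test gave 0 members after adjustment (26 of 214 miRNAs) and 1 before it, miR-181d-5p (69 of 214 miRNAs), and no member passed the study's added threshold of a change over 2-fold. Groups that did not overlap were seen for 2 members, miR-181c-5p and miR-181d-5p, beside 47.2% of all miRNAs tested. Both were lower in the model group, beside 30.8% of all miRNAs tested, so that such a separation was common on these arrays. It held for the scaled values only, since the scanner signals of both members overlapped between the groups.

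The scaling set the position of zero. Over the 198 miRNAs that every array detected, the log2 fold change had a median of -0.15. Relative to it, miR-181a-5p was at 0.10, miR-181b-5p at 0.12, miR-181c-5p at -0.06 and miR-181d-5p at -0.22. Without scaling the values were 0.19 for miR-181a-5p, 0.22 for miR-181b-5p, 0.03 for miR-181c-5p and -0.13 for miR-181d-5p. The log2 fold change of miR-181d-5p was below 0 under all 22 alternatives run, between -0.47 and -0.03, with adjusted p between 0.0581 and 0.890. Those of the other 3 took both signs, and no member was called under any of the 22. Not all of the 22 could move the value of miR-181d-5p. The low floor, the changed detection filters, the methods' t-test, the intensity trend and the replicate block kept it at -0.37. Since its groups did not overlap, leaving out 1 array was also a weak test of its sign. Within row 1 of the slide, model array 1 minus the mean of the 3 control arrays was -0.14 for miR-181a-5p, -0.06 for miR-181b-5p, -0.28 for miR-181c-5p and -0.40 for miR-181d-5p. With the row as a block, the limma estimate rests on this same comparison, since the other row held no control array. It was again -0.40 for miR-181d-5p, from model array 1 alone, and is no separate result.

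**Figure D3:**
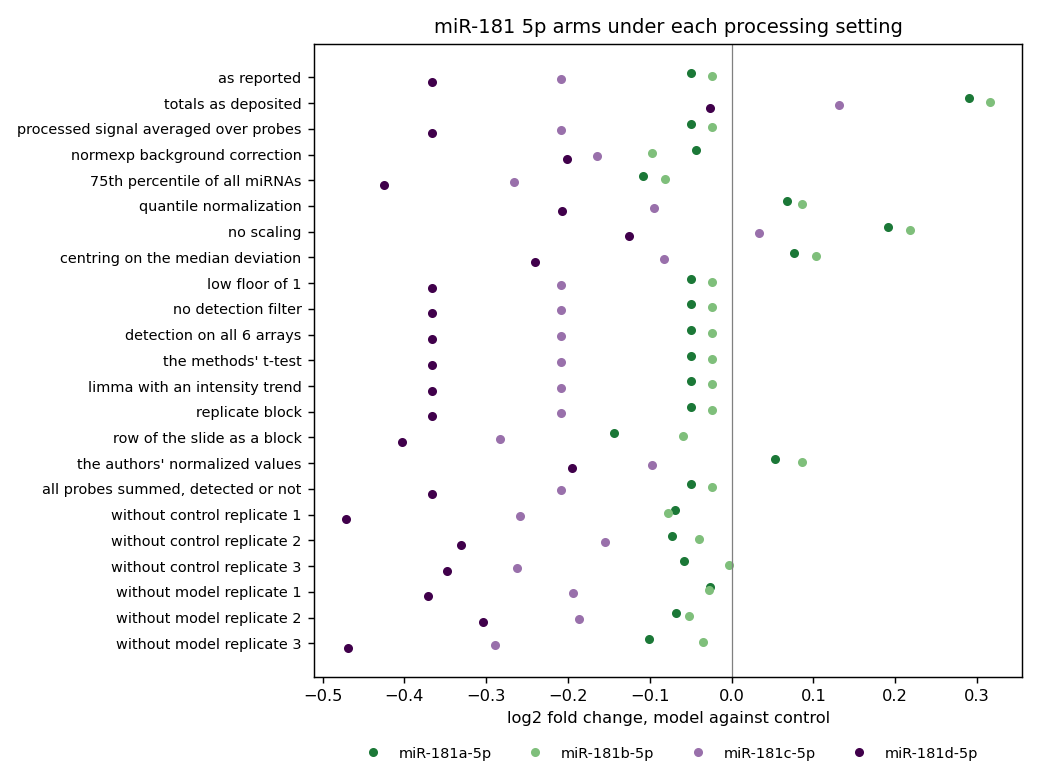
Log2 fold change, model against control (horizontal axis), of the 4 miR-181 5p arms as reported (top line) and under each of 22 other ways of processing or leaving out arrays (1 line each). MiR-181d-5p (darkest points) lies below 0 on every line, between -0.47 and -0.03, while miR-181a-5p and miR-181b-5p lie on both sides of 0, and miR-181d-5p lies to the left of the other 3 on each line. Lines that change only the floor, the detection filter, the test or the replicate block repeat the values as reported.

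The ratio of 2 members within an array does not depend on a common scaling factor, so the 6 pairs of 5p arms were compared next. In the model group, miR-181d-5p was lower on average relative to each of the other 3 members. The 95% interval of the log2 difference ran from -0.0139 to 0.647 for miR-181a-5p over miR-181d-5p. It ran from -0.0789 to 0.395 for miR-181c-5p over miR-181d-5p, so both of these intervals held values of either sign. For miR-181b-5p over miR-181d-5p it ran from 0.00991 to 0.676. Exact permutation tests of 3 arrays against 3 cannot give a p under 0.10, so no pair could pass the threshold of 0.05.

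The log2 ratio of miR-181b-5p to miR-181d-5p was 0.22, 0.02 and 0.12 on control arrays 1, 2 and 3 and 0.47, 0.65 and 0.28 on model arrays 1, 2 and 3. These 2 strands differ at 1 base. The lowest model array lay above the highest control array, and the mean log2 ratio was higher by 0.34, or 1.27-fold (exact permutation p = 0.10, adjusted p = 0.15 over 6 pairs). The log2 ratio of miR-181a-5p to miR-181d-5p was 2.94, 2.65 and 2.72 on the control arrays, against 3.03, 3.24 and 2.98 on the model arrays. It was also higher on every model array, by 0.32 on average, or 1.25-fold (exact permutation p = 0.10, adjusted p = 0.15).

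MiR-181c-5p and miR-181d-5p come from neighbouring hairpins. Their log2 ratio was 0.19, 0.12 and -0.06 on the control arrays, against 0.21, 0.32 and 0.20 on the model arrays, higher by 0.16 on average (exact permutation p = 0.10, adjusted p = 0.15). The groups were apart by only 0.00693, between control array 1 and model array 3. The ratio of miR-181a-5p to miR-181c-5p was 2.75, 2.53 and 2.77 on the control arrays, against 2.82, 2.92 and 2.78 on the model arrays, higher by 0.16 (exact permutation p = 0.10, adjusted p = 0.15), and the groups were apart by only 0.00874. Without control array 2 that difference was 0.08, and without control array 3 that of miR-181c-5p over miR-181d-5p was 0.09.

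The ratio of miR-181b-5p to miR-181c-5p overlapped between the groups, with a log2 difference of 0.19 (exact permutation p = 0.2, adjusted p = 0.24). So did that of miR-181a-5p to miR-181b-5p, the members that share their hairpin pairs. It was 2.72, 2.63 and 2.59 on the control arrays, against 2.56, 2.60 and 2.70 on the model arrays, with a difference of -0.03 (exact permutation p = 0.6, adjusted p = 0.6). In all, 4 of the 6 pairs did not overlap between the groups, beside 41.8% of the 19503 pairs of miRNAs detected on all arrays. The pairs share members and are not independent. With quantile normalization, and likewise in the authors' normalized values, 1 of the 6 pairs did not overlap, miR-181b-5p over miR-181d-5p, while miR-181a-5p over miR-181c-5p had an exact permutation p of 0.5 in both.

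**Figure D4:**
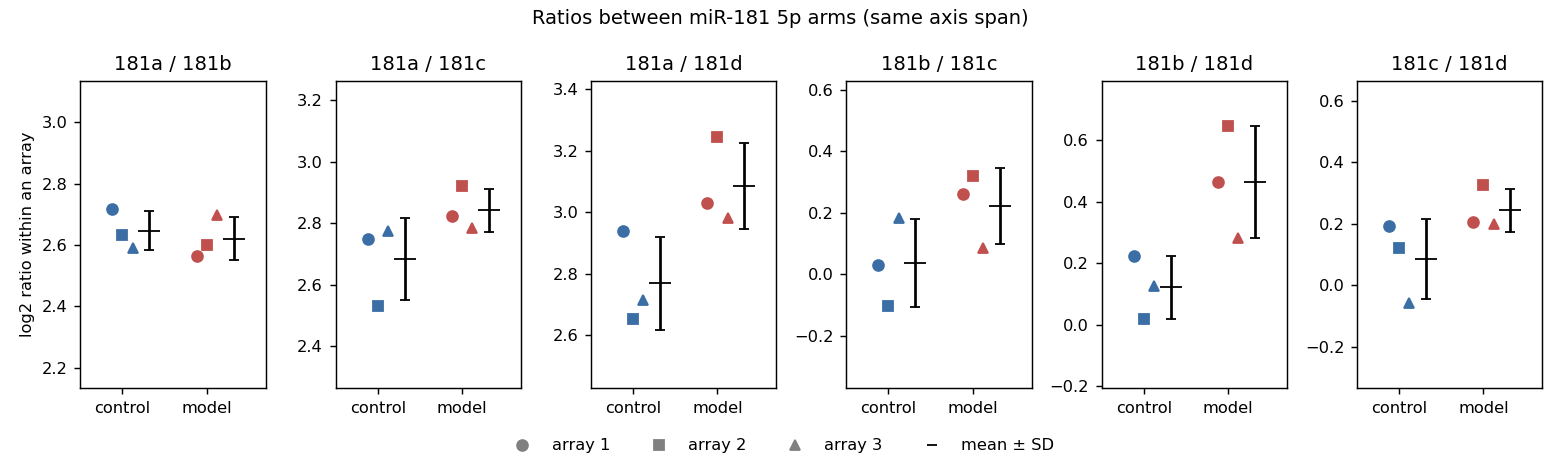
Log2 ratio of 2 miR-181 5p arms on the same array (vertical axes, the same span in each panel) for the 3 control (blue) and 3 model (red) arrays, with the mean ± SD of each group in black (n = 3). All model arrays lie above all control arrays for miR-181a over miR-181c (difference 0.16) and for miR-181a, miR-181b and miR-181c over miR-181d (differences 0.32, 0.34 and 0.16).

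The differences were smaller with normexp and an offset of 50, which together change the background correction and add a constant to every signal. The parts of the correction and the constant in this were not tested. The log2 difference was then 0.10 for miR-181b-5p over miR-181d-5p, 0.16 for miR-181a-5p over miR-181d-5p and 0.04 for miR-181c-5p over miR-181d-5p. The exact permutation p of the last was then 0.4. In the authors' normalized values the same 3 differences were 0.28, 0.25 and 0.10, with exact permutation p of 0.1, 0.3 and 0.4. The differences of 5 of the 6 pairs were above 0 under all 12 alternatives run on ratios. That of miR-181a-5p over miR-181b-5p took both signs. Many of the 12 could not turn a sign. The deposited totals, the averaged processed signal and the sum of all probes repeated the differences as reported. For pairs whose groups did not overlap, leaving out a single array could not turn the sign either. For those pairs only normexp, quantile normalization and the authors' values could have done so.

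The 2 probes of each 5p arm were then taken apart. After scaling, but not before it, both probes of miR-181d-5p were lower on every model array. Probe 1 of miR-181d-5p (A_26_P00001802) had signals of 6.23, 10.2 and 7.57 on the control arrays and of 7.19, 6.29 and 6.89 on the model arrays, and after scaling the log2 fold change was -0.45 (exact permutation p = 0.10). Probe 2 (A_26_P00001803) had signals of 15.2, 22.9 and 17.6 on the control arrays and of 18.1, 16.1 and 17.4 on the model arrays, with a log2 fold change of -0.33 (exact permutation p = 0.10). The groups overlapped without scaling, where these 2 fold changes were -0.21 and -0.09 (exact permutation p = 0.5 and 0.8), and with centring on the median deviation, where they were -0.32 and -0.21 (exact permutation p = 0.2 for both). Probe 1 also overlapped with normexp (-0.19, exact permutation p = 0.2). The probes of miR-181c-5p gave -0.20 and -0.23 (exact permutation p = 0.10 and 0.2), and model and control arrays overlapped for the second.

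The probes of miR-181a-5p gave log2 fold changes of -0.11 and -0.03, and those of miR-181b-5p gave 0.03 and -0.05, all with overlapping groups. The 8 spots of a probe varied by 1.25% to 14.6% (coefficient of variation on 1 array). For miR-181b-5p over miR-181d-5p, all 4 combinations of probes were higher on every model array, with log2 differences of 0.28 to 0.48. For miR-181a-5p over miR-181d-5p, 3 of 4 combinations were, with differences of 0.22 to 0.42, and for miR-181c-5p over miR-181d-5p 1 of 4 was. No combination of miR-181a-5p with miR-181b-5p separated the groups.

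**Figure D5:**
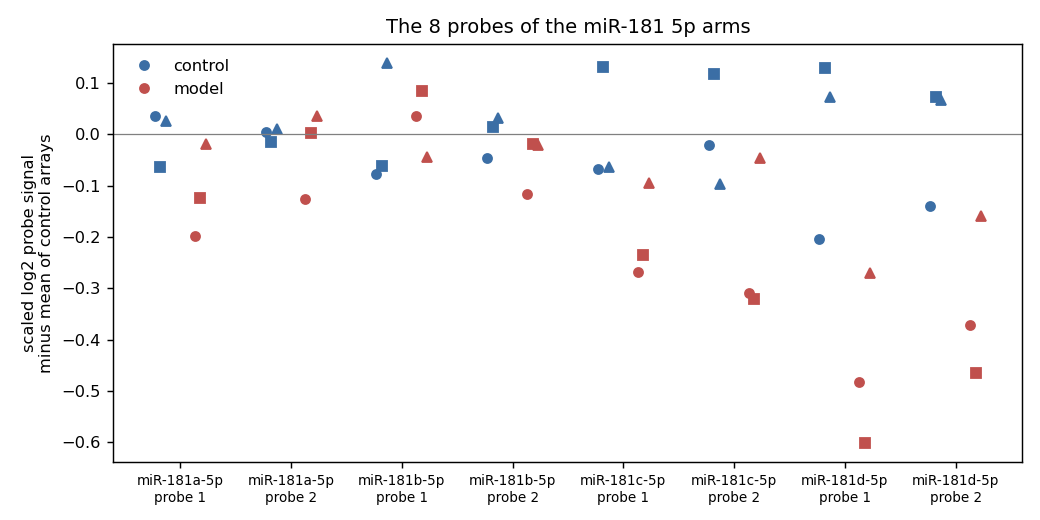
Scaled log2 signal of the 2 probes of each miR-181 5p arm, minus the mean of the control arrays for that probe (vertical axis), on control (blue) and model (red) arrays; circles, squares and triangles are arrays 1, 2 and 3. For both probes of miR-181d-5p all model arrays lie below all control arrays (log2 fold changes -0.45 and -0.33), while the groups overlap for the probes of miR-181a-5p and miR-181b-5p.

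Across the 6 arrays, the profiles of the members differed. Likeness was measured as the root mean square difference of the scaled log2 signals after each miRNA's own mean was subtracted, where 0 is an identical profile. Outside the family, miR-664-3p (0.0507), miR-1249 (0.0549) and miR-93-5p (0.0554) were nearest to miR-181a-5p. By the same measure miR-874-3p (0.0457), miR-374-5p (0.0515) and miR-28-5p (0.0634) were nearest to miR-181b-5p. The signal of miR-874-3p stood at the floor on all 6 arrays and that of miR-374-5p on 5 of 6, so these 2 values only say how flat miR-181b-5p was. For miR-181c-5p, let-7d-5p (0.0450), miR-342-3p (0.0539) and miR-352 (0.0646) were nearest. MiR-339-3p (0.0940), miR-22-5p (0.0960) and miR-1949 (0.0981) were nearest to miR-181d-5p, none as near as those of the other 3 members. Within the family, miR-181a-5p and miR-181b-5p differed by 0.0567, miR-181c-5p and miR-181d-5p by 0.116, and miR-181a-5p and miR-181c-5p by 0.118. The difference was 0.143 for miR-181b-5p and miR-181c-5p, 0.198 for miR-181a-5p and miR-181d-5p, and 0.209 for miR-181b-5p and miR-181d-5p. MiR-181c-5p was thus about as near to miR-181a-5p as to miR-181d-5p. The arrays and their scaling are shared by all these values, which are descriptions without a test.

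The hairpins of miR-23a, miR-27a and miR-24 lie near those of miR-181c and miR-181d on chromosome 19, with 2 annotated genes between Mir23a and Mir181c. Of the 6 miRNAs listed from that cluster, 4 were tested and none was called (each of the 4 was called higher in 1 to 4 of 22 alternatives), with limma log2 fold changes of 0.19 to 0.23 and a median of 0.20, beside -0.14 over all 214 miRNAs tested. The values of miR-181c-5p (-0.21) and miR-181d-5p (-0.37) were on the other side of 0 under this scaling. Whether the mature miR-24 on these arrays came only from this cluster was not tested. Transcription of the cluster was not tested either. MiR-3570, whose hairpin overlaps Mir181a-1, was detected on no array.

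MiRNAs known from the cell types of the heart differed between the groups on the same arrays. Of the heart muscle list (miR-1-3p, miR-133a-3p, miR-133b-3p, miR-208a-3p and miR-499-5p), 3 of 5 fell, beside 12.6% of all miRNAs tested, 0 rose, and the median log2 fold change was -0.72. Signals summed over a list were scanner signals before scaling. For this list the sum ranged from 16568 to 26038 on the control arrays and from 11750 to 15851 on the model arrays. Most of it came from miR-1-3p and miR-133b-3p. All 4 of the fibroblast or matrix list (miR-21-5p, miR-199a-5p, miR-199a-3p and miR-214-3p) rose, beside 10.3% of all miRNAs tested, with a median of 1.62 and summed signals of 561 to 863 on the control arrays and 1770 to 2772 on the model arrays. Both listed strands of the endothelial miR-126a fell, beside 12.6% of all miRNAs tested. Their median was -0.54, with summed signals of 1187 to 1733 against 1120 to 1216. The cell type lists were chosen with earlier results of these data known. The study had already reported every miRNA of the fibroblast or matrix list as higher, from the same arrays. The counts of the lists beside the shares of all miRNAs tested are therefore descriptions and not tests. The rises of the fibroblast or matrix list were called in 20 to 22 of 22 alternatives. The falls depended on the processing, since each of the heart muscle calls was made in 9 to 11 of the 22 and both miR-126a calls in 16. None of these falls was called without scaling, with the deposited totals, with the replicate block or without control array 1.

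Of the leukocyte list, 4 of 5 were tested. MiR-155-5p rose by 1.07 on the log2 scale (limma adjusted p = 0.0127), miR-150-5p fell by 0.60 (limma adjusted p = 0.0178), and miR-142-3p (-0.07) and miR-223-3p (0.15) were not called. The rise of miR-155-5p was called in 16 of 22 alternatives and turned to -1.92 with the deposited totals. With normexp, no miRNA of this list was called higher, and the highest log2 fold change in it was 0.000106. The scanner signals of miR-155-5p were 3.38, 5.69 and 3.04 on the control arrays, against 9.07, 9.95 and 9.87 on the model arrays. The fall of miR-150-5p was called in 9 of 22 alternatives and not without scaling. The median of the list was 0.04, and its summed signals were 306 to 453 on the control arrays and 310 to 322 on the model arrays. Of the red blood cell list, 2 of 4 were tested and miR-486 fell (-0.68, limma adjusted p = 0.0132, called in 15 of 22 alternatives and not without scaling), with summed signals of 283 to 339 against 217 to 243, while miR-144-3p and miR-144-5p were detected on no array. Neither of the smooth muscle miRNAs miR-143-3p and miR-145-5p was called (median -0.17), with summed signals of 733 to 1270 against 915 to 1097. The part of these shifts in the values of miR-181c-5p and miR-181d-5p was not tested.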

How the data were processed

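MiRNA signals were taken from 6 single-colour Agilent Rat miRNA arrays, 3 control and 3 model, grouped by the sample labels. The study's methods state that 3 samples were drawn at random from each group of rats. The authors deposited the spot-level intensity output of Agilent Feature Extraction 10.7.1.1 (per the labels), background-subtracted and not scaled between arrays, and normalized log2 values whose method is not given in the sources used here. The genome build behind the array design is not given there either.

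The signal of a miRNA was rebuilt as the sum of its probes with signal over 3 times their error, because the deposited total of a miRNA can also hold that of the miRNA before it in name order. Signals were divided by the array's 75th percentile over miRNAs found on all 6, floored at the highest of the arrays' lowest scaled detected signals, and put on the log2 scale. Floored values have no order among themselves. MiRNAs detected in all 3 arrays of either group were tested with limma 3.58.1 (lmFit, eBayes, R 4.3.3), two-sided, without covariates, and adjusted by Benjamini-Hochberg over all 214. Ratios and probes were compared with two-sided exact permutation tests (scipy 1.17.1, Python 3.11.15). Precision is limited by the number of arrays, 3 per group, and by the limit of detection. The limma step was tested on simulated data with larger changes than those of the members. Its power for changes as small as theirs was not tested.

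Every miR-181 miRNA is named, with the 3 nearest profiles outside the family for each detected 5p arm, the listed neighbours and the cell type lists. The members and lists were chosen with earlier results of these data known. The alternatives were the deposited totals, the processed signal averaged over probes, normexp (offset 50), the 75th percentile of all miRNAs, quantile normalization, no scaling, centring on the median deviation, limma with an intensity trend or with a replicate block or the slide row as a block, the methods' t-test, detection required on all 6 arrays or on none, a low floor of 1, the authors' values, and leaving out each array. The sum of all probes was added after the values were seen. A block for slide or scan was not run, since all arrays share 1 of each.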

Additional observations from a re-analysis of the deposited data

How the results depend on the processing

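No member of the family was called under any of the 22 alternatives, miR-181d-5p stayed below 0 in all of them, and 5 of the 6 ratios kept their sign in all 12 run on ratios. Many of these runs left the estimates unchanged or could not turn a sign, as given above. Signs turned as follows. With the totals as deposited, miR-181a-5p was at 0.29, miR-181b-5p at 0.32 and miR-181c-5p at 0.13. With quantile normalization miR-181a-5p was at 0.0677 and miR-181b-5p at 0.0856, without scaling miR-181a-5p was at 0.19, miR-181b-5p at 0.22 and miR-181c-5p at 0.0329, with centring on the median deviation miR-181a-5p was at 0.0761 and miR-181b-5p at 0.103, and in the authors' values miR-181a-5p was at 0.0526 and miR-181b-5p at 0.0856. MiR-181a-1-3p turned to -0.27 with the processed signal averaged over probes and with all probes summed, and to -0.17 with normexp. The ratio of miR-181a-5p to miR-181b-5p turned to 0.0546 with normexp, and ranged from -0.0658 to 0.00872 when single arrays were left out. Probe 1 of miR-181b-5p (A_26_P00001409) turned to -0.0932 with normexp and -0.0326 with the percentile of all miRNAs, and ranged from -0.0381 to 0.0797 with arrays left out. Without scaling, the probes of miR-181c-5p stood at 0.0421 and 0.0159, those of miR-181a-5p at 0.13 and 0.21, and probe 2 of miR-181b-5p at 0.19. With centring on the median deviation, the probes of miR-181a-5p stood at 0.0124 and 0.0971, and probe 2 of miR-181b-5p at 0.0737. The causes were not tested.

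The count of miRNAs called over the whole array, 49, was 19 without scaling (19 higher, 0 lower). It was 9 without a detection filter (more miRNAs tested), 26 with the methods' t-test, and 14 to 39 with single arrays left out. In that range it was 14 without control array 1, 26 without control array 2 and 27 without control array 3. The split moved with the scaling, from 22 higher and 27 lower to 30 and 16 with centring on the median deviation and 23 and 16 with quantile normalization. It was 35 and 1 with the deposited totals, 15 and 29 with normexp and its offset, and 23 and 14 in the authors' values.

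The groups share replicate numbers, and the labels do not say whether a number stands for anything shared. Deviations of same-numbered arrays had correlations of -0.26, 0.0011 and 0.16 across miRNAs, beside -0.22 to 0.21 for arrays of different number. With so few arrays this cannot show whether same-numbered arrays have anything in common. With a replicate block, 16 miRNAs were called (12 higher, 4 lower), none of them a member, and miR-181d-5p had an adjusted p of 0.153 in limma.

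With 3 arrays per group, exact tests cannot pass 0.05. The signals of miR-181b-5p, miR-181c-5p and miR-181d-5p were 21.4 to 36.1, beside lowest detected signals of 1.16 to 1.60, while the 3p arms gave no usable comparison.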

Other observations

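The deposited totals of miR-181a-1-3p were 20.4 on control array 2 and 21.6, 1088 and 870 on model arrays 1, 2 and 3, beside sums of its own detected probes of 3.06, 2.84, 3.10 and 2.29. The excess of 17.4, 18.8, 1085 and 868 equals the total deposited for miR-17-5p, the miRNA before it in name order, on each of the 4 arrays within a relative tolerance of 0.0001. On the deposited totals the log2 fold change of miR-181a-1-3p was 5.61, against 0.21 on the sums of its own probes.

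The 2 probes for 1 strand did not always move by the same amount. The log2 ratio of probe 1 to probe 2 differed between the groups by -0.12 for miR-181d-5p and by -0.08 for miR-181a-5p, with no overlap between the groups, and by 0.08 for miR-181b-5p and 0.03 for miR-181c-5p, with overlap. These differences between probes of the same strand were smaller than the 0.28 to 0.48 between probes of miR-181b-5p and miR-181d-5p, and near the 0.11 to 0.25 between probes of miR-181c-5p and miR-181d-5p.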
